A study of Mus musculus with 3 samples.

Results

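UDP-glucuronosyltransferases (UGTs) and sulfotransferases (SULTs) attach a charged group to bile acids, steroids, bilirubin and drugs, so that the product can leave the liver cell in bile or blood. The 10 genes described here are Ugt2b1, Ugt2b5, Ugt2b34, Ugt2b35, Ugt2b36, Ugt2b38, Ugt2a3, Ugt1a1, Sult1a1 and Sult1d1, taken by gene symbol from the 32285 genes in the count matrices. All 10 were found, and 9 of them reached 100 counts when the libraries were added up, the minimum for a gene to be taken as measured (7855 genes in all). UGTs sit in the membrane of the endoplasmic reticulum and use UDP-glucuronic acid, while SULTs are soluble and use 3'-phosphoadenosine-5'-phosphosulfate, known as PAPS. In humans, UGT2B4 and UGT2B7 are known to glucuronidate hyodeoxycholic acid, the bile acid fed in this study. In mouse liver, Ugt2b1 and Ugt2b38 are known as male-predominant genes.

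Hepatocytes came from wild-type mice and were isolated by collagenase perfusion after 12 weeks on a diet. The groups were a 60% high fat diet with 0.25% hyodeoxycholic acid (HFD_HDCA), the same high fat diet alone (HFD), and a normal diet (ND). Each group had 1 droplet-based single-cell RNA library, made with a kit that counts mRNA 3' ends by unique molecular identifiers (UMIs). Neither the number nor the sex of the mice behind a library is stated in the labels. With 1 library per group no test was possible, and every interval below covers counting error only, not the variation between mice or preparations.

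Barcodes with at least 200 genes and at most 50% mitochondrially encoded counts were retained, which left 3000 of 4873 in HFD_HDCA, 2898 of 6290 in HFD and 2776 of 5755 in ND. Their nuclear-encoded counts summed to 5795200, 3734740 and 4274662 in HFD_HDCA, HFD and ND, and levels are given in CPM, the count scaled to a library total of 1000000. All 11 hepatocyte markers found among the features were detected in every library, at a summed 115359 CPM in HFD_HDCA, 99115 CPM in HFD and 107764 CPM in ND. The 13 markers of sinusoidal endothelial cells summed to 119 CPM in HFD_HDCA, 74.97 CPM in HFD and 494 CPM in ND, and the 10 Kupffer cell markers to 107, 117 and 107 CPM in the same order of libraries. Red cell markers summed to 26.2 CPM in HFD_HDCA and 342 CPM in HFD and were at 0 in ND. The part of these other cell types in the results below was not tested except where stated. Across libraries, 1 retained barcode was shared by HFD_HDCA and HFD, 1 by HFD_HDCA and ND, and 5 by HFD and ND.

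Of the 10 genes, 8 lie in one stretch of mouse chromosome 5, and among them Ugt2b5 and Ugt2b38 resemble each other closely enough to bear on how their counts are read. In GRCm38 coordinates with GENCODE M21 annotation, Ugt2b34 spans chr5:86889767-86906937, Ugt2b1 chr5:86916638-86926530, Ugt2b35 chr5:87000860-87013275, Ugt2b36 chr5:87065927-87092555, Ugt2b5 chr5:87124960-87140318, Ugt2a3 chr5:87324972-87337195 and Ugt2b38 chr5:87409942-87424203. Sult1d1 follows at chr5:87554645-87569027, and of these 8 only Ugt2b35 is on the plus strand. Ugt1a1 is at chr1:88211959-88218997 on the plus strand and Sult1a1 at chr7:126672865-126676432 on the minus strand. The closest pair was Ugt2b5 and Ugt2b38, whose transcripts were 95.7% identical over 1857 aligned bases. Of the 90-base windows of the Ugt2b5 transcript, 25.8% also occurred in Ugt2b38 or Ugt2b37, a copy that is not a member. Ugt2b1, Ugt2b35 and Ugt2b36 shared 0 windows with another gene, and Ugt2b34 shared 22 of 4223, with Ugt2a3. In the last 500 bases, where a 3' kit reads, 0 of 411 windows of any Ugt2b member were shared with another gene. Ugt1a1 was the opposite case, with all 411 of its end windows shared with the other Ugt1a genes, because 4 of its 5 exons are common to the locus. How reads that match several genes were assigned is not given in the sources used here, so the 6 Ugt2b members are also given as a sum.

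The promoters of the pair Ugt2b38 and Ugt2b5 are printed to show how alike these genes are upstream, and that of Ugt2b1 because it and Ugt2b38 had the lowest ratios below. Each runs from 250 bases before to 50 bases after the transcription start in RefSeq (GRCm38.p6), 5' to 3' on the gene's own minus strand, at chr5:87424154-87424453, chr5:87140291-87140590 and chr5:86926454-86926753. The capital letter marks the first transcribed base.
Ugt2b38: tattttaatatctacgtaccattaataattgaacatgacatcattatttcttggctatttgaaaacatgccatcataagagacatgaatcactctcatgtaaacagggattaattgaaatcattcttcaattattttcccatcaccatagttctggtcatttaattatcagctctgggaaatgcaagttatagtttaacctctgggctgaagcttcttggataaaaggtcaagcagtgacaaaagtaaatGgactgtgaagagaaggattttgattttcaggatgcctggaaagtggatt
Ugt2b5: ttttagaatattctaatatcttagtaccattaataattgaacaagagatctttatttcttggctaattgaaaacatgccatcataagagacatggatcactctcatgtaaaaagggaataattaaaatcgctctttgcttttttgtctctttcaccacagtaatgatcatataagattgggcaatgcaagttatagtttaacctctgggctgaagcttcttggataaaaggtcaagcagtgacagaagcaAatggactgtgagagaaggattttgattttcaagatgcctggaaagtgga
Ugt2b1: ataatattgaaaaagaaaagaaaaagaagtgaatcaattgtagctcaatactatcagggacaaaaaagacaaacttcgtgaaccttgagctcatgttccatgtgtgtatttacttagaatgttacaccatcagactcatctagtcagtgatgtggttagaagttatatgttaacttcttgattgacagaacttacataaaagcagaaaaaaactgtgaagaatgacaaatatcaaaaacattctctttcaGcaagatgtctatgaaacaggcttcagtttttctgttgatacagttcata
The Ugt2b38 and Ugt2b5 promoters were 90% identical over 290 aligned bases, and the Ugt2b38 and Ugt2b1 promoters 59.5% over 269. One motif was searched on both strands, TTCNNNGAA with N for any base, the palindrome of STAT5-like sites. It was in 0 of 10 members' promoters and in 8.30% of the 32851 promoters of the same length. The motif was chosen after the sequences had been seen, and no match says only that these letters are not in this window.

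Ugt2b1 and Ugt2b38 were the members that stood apart in the HFD_HDCA library, and Sult1d1 stood apart in the HFD library. The members with the most 3' UMI counts were Ugt2b5 and Ugt2b36 in all 3 libraries, and those with the fewest were Ugt2b38 and Ugt1a1. Ugt1a1 shares its whole 3' end with the other Ugt1a genes, so its low count cannot be read as a low level. One UMI stands for one captured molecule, so these counts were not divided by transcript length.

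**Figure D1:**
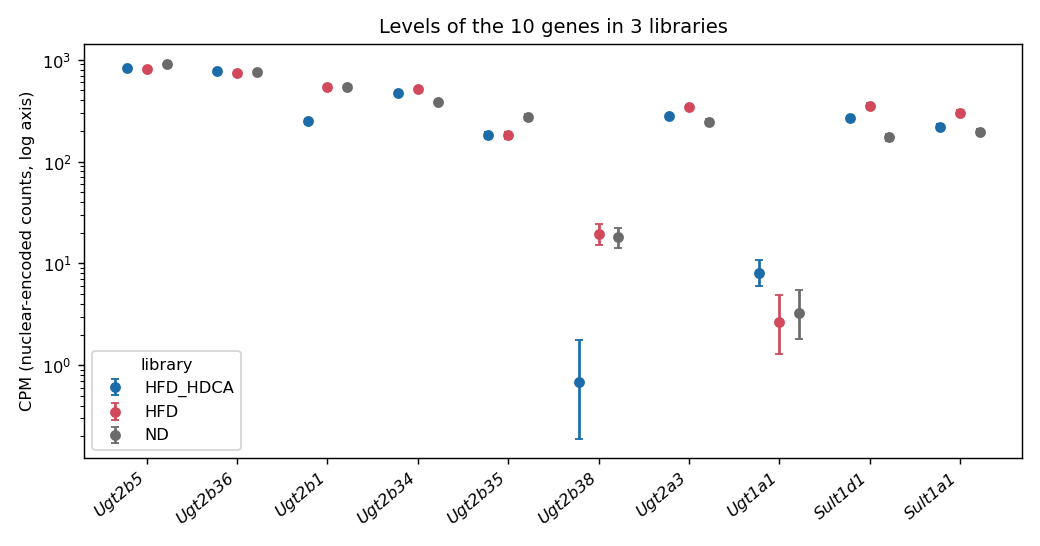
Levels of the 10 genes in the HFD_HDCA (blue), HFD (red) and ND (grey) libraries, in CPM on a log axis. Bars are exact 95% Poisson intervals, which cover counting error only. Ugt2b1 and Ugt2b38 lay lower in HFD_HDCA than in both other libraries, while Ugt2b5 and Ugt2b36 lay close together in all 3.

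Ugt2b1 had 1444 counts or 249 CPM (236 to 262) in HFD_HDCA, 2011 counts or 538 CPM (515 to 563) in HFD and 2304 counts or 539 CPM (517 to 561) in ND. The HFD and ND libraries could not be told apart by counting error, and HFD_HDCA lay below both. The log2 ratio of HFD_HDCA to HFD was -1.11 (95% interval -1.21 to -1.01), a 2.16-fold lower level, and that of HFD_HDCA to ND was -1.11 (-1.21 to -1.02). HFD against ND gave -0.00 (-0.09 to 0.09). Over the 10 alternative settings the ratio of HFD_HDCA to HFD stayed between -1.17 and -1.04.

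Ugt2b38, the near copy of Ugt2b5, had 4 counts or 0.690 CPM (0.188 to 1.77) in HFD_HDCA, 72 counts or 19.3 CPM (15.1 to 24.3) in HFD and 77 counts or 18.0 CPM (14.2 to 22.5) in ND. It was close to absent from the HFD_HDCA library and rare but regular in the other libraries. Its log2 ratio was -4.64 for HFD_HDCA against HFD (-6.72 to -3.39), a 25-fold lower level, and only 3 of 7855 genes had a lower ratio. Against ND it was -4.55 (-6.62 to -3.29), and HFD against ND gave 0.10 (-0.39 to 0.58). The summed count of 153 that made it a measured gene came almost wholly from HFD and ND. Its near copy Ugt2b5 had a ratio of 0.03 for HFD_HDCA against HFD. Ugt2b37, the third gene of this close group, had 2 counts in HFD_HDCA, 14 in HFD and 5 in ND, too few for a measured ratio.

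In whole libraries the other Ugt2b copies stayed within 2-fold in every comparison. Ugt2b5 had 826 CPM (803 to 850) in HFD_HDCA, 806 CPM (778 to 836) in HFD and 905 CPM (876 to 934) in ND. Ugt2b36 had 783 CPM in HFD_HDCA, 740 CPM in HFD and 759 CPM in ND. These are the 2 most abundant copies, and their levels differed least between libraries. Ugt2b34 had 468 CPM in HFD_HDCA, 515 CPM in HFD and 387 CPM in ND, with a log2 ratio of 0.41 (0.31 to 0.51) for HFD against ND. Ugt2b35 had 182 CPM in HFD_HDCA, 181 CPM in HFD and 274 CPM in ND. Both libraries on high fat thus lay below ND for Ugt2b35, at a log2 ratio of -0.59 (-0.71 to -0.47) for HFD_HDCA against ND and -0.60 (-0.74 to -0.46) for HFD against ND.

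Ugt2a3, whose human counterpart is also known to conjugate bile acids, had 278 CPM (265 to 292) in HFD_HDCA, 344 CPM (325 to 363) in HFD and 247 CPM (232 to 262) in ND. The HFD library was the highest, with a log2 ratio of 0.48 (0.36 to 0.60) against ND. Ugt1a1, which conjugates bilirubin, had 47 counts or 8.11 CPM in HFD_HDCA, 10 counts or 2.68 CPM in HFD and 14 counts or 3.28 CPM in ND. It was thus the highest in HFD_HDCA, with a log2 ratio of 1.54 against HFD whose interval of 0.60 to 2.75 reached below 2-fold. With 71 counts in all it missed the minimum of 100, and it shares its 3' end with the whole locus. The 9 Ugt1a genes summed gave 23.0 CPM (19.2 to 27.2) in HFD_HDCA, 13.4 CPM (9.94 to 17.7) in HFD and 16.4 CPM (12.8 to 20.7) in ND, a sum added after seeing the data. The sum had the same order, with a smaller log2 ratio of 0.77 (0.30 to 1.28) for HFD_HDCA against HFD. Ugt1a1 itself gave 47 of the sum's 133 counts in HFD_HDCA, 10 of 50 in HFD and 14 of 70 in ND. The shared order is thus in part built in and is no separate support for Ugt1a1.

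Both sulfotransferases were highest in the HFD library. Sult1d1, which in mice sulfonates catecholamines, had 269 CPM (256 to 283) in HFD_HDCA, 353 CPM (334 to 372) in HFD and 173 CPM (161 to 186) in ND. Its level in HFD was 2.03-fold that in ND, a log2 ratio of 1.02 (0.89 to 1.16) that straddles the 2-fold rule, and 6 of 10 alternative settings kept it past that rule. HFD_HDCA lay between the other libraries, at -0.39 (-0.50 to -0.28) against HFD and 0.64 (0.51 to 0.76) against ND. Sult1a1, the phenol sulfotransferase, had 220 CPM (208 to 232) in HFD_HDCA, 301 CPM (284 to 320) in HFD and 197 CPM (184 to 211) in ND. Its log2 ratio was 0.61 (0.48 to 0.74) for HFD against ND and -0.46 (-0.57 to -0.34) for HFD_HDCA against HFD.

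By the 2-fold rule, 1 of the 9 measured members was higher (Sult1d1) and 0 were lower in HFD against ND, where 2.85% of all measured genes were higher and 3.53% lower. In HFD_HDCA against HFD, 0 were higher and 2 were lower (Ugt2b1 and Ugt2b38), against 1.63% and 1.48% of all genes. In HFD_HDCA against ND, 0 were higher and the same 2 were lower, against 2.62% and 2.97% of all genes. Ugt2b38 reached the count minimum through HFD and ND, with 72 and 77 counts against 4 in HFD_HDCA. A gene measured in this way can hardly be called other than lower in HFD_HDCA, so its call is in part built in. With a minimum of 500 counts, which Ugt2b38 misses, 1 member was lower in each of these HFD_HDCA comparisons. The comparisons share libraries, so a low or high level in 1 library enters 2 of them. In HFD against ND the median log2 ratio was 0.10 over the 9 members and -0.06 over all 7855 genes. In HFD_HDCA against HFD these medians were -0.30 and 0.05, and with HFD_HDCA set against ND they were 0.04 and -0.01. With 1 library per diet, diet and any other difference between the mice, their sex included, cannot be told apart. Sult2a1 and Sult3a1, known as female-predominant in mouse liver, had 0 counts in all 3 libraries. Sult2a7, another listed sulfotransferase, had 58 counts in HFD_HDCA, 18 in HFD and 9 in ND, too few for a measured ratio. These sulfotransferases were picked after their values were seen, and their 3' ends were not checked for windows shared with other genes. The sex of the mice was not tested. Counts summed over a library do not separate fewer cells with a transcript from fewer transcripts per cell.

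**Figure D2:**
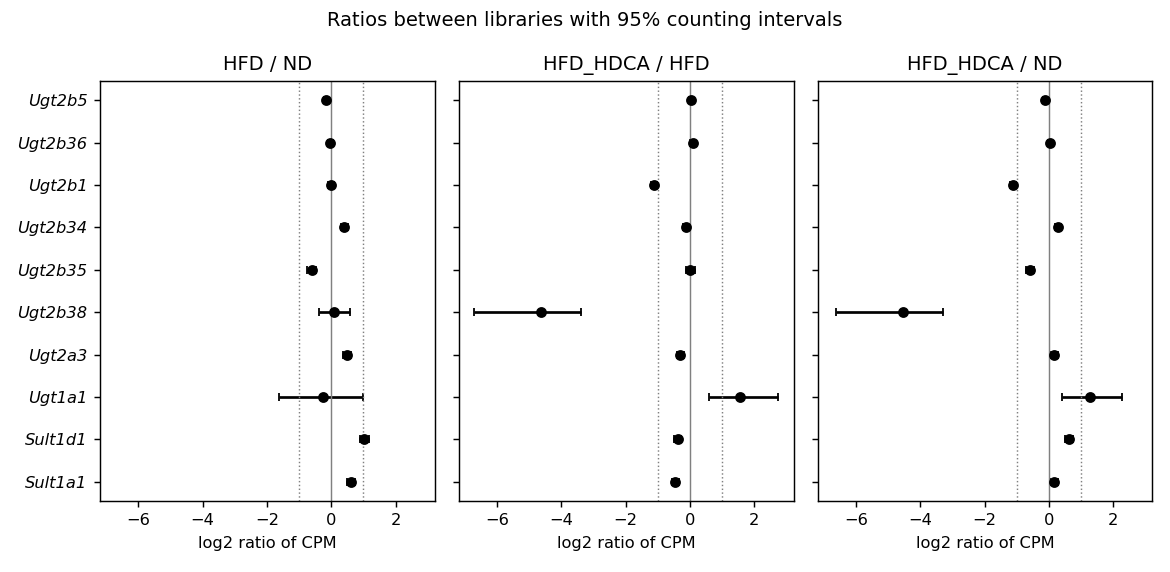
Log2 ratios of the 10 genes in the 3 comparisons, each with its 95% counting interval, and dotted lines at 2-fold. Ugt2b1 and Ugt2b38 lay past the lower line where HFD_HDCA was set against HFD and against ND, and Sult1d1 lay on the upper line for HFD against ND.

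The sum of the 6 Ugt2b copies varied little between whole libraries while its make-up differed. It was 2509 CPM (2469 to 2550) in HFD_HDCA, 2799 CPM (2746 to 2854) in HFD and 2882 CPM (2832 to 2934) in ND. HFD_HDCA was the lowest, at a log2 ratio of -0.16 (-0.19 to -0.12) against HFD and -0.20 (-0.23 to -0.17) against ND. HFD against ND gave -0.04 (-0.08 to -0.00), which turned to 0.023 with median-of-ratios scaling and to 0.0053 in barcodes with at least 500 genes. Within the sum, Ugt2b1 made up 9.93% (9.45 to 10.4%) in HFD_HDCA, 19.2% (18.48 to 20%) in HFD and 18.7% (18.0 to 19.4%) in ND. Ugt2b36 made up 31.2% in HFD_HDCA, 26.4% in HFD and 26.3% in ND. Ugt2b34 made up 18.7% in HFD_HDCA, 18.4% in HFD and 13.4% in ND, so that the ND library was the low one for this copy. Ugt2b38 was 0.0275% of the sum in HFD_HDCA, 0.689% in HFD and 0.625% in ND. Shares within the sum do not depend on the scaling of the libraries, and they were computed after the levels had been seen.

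**Figure D3:**
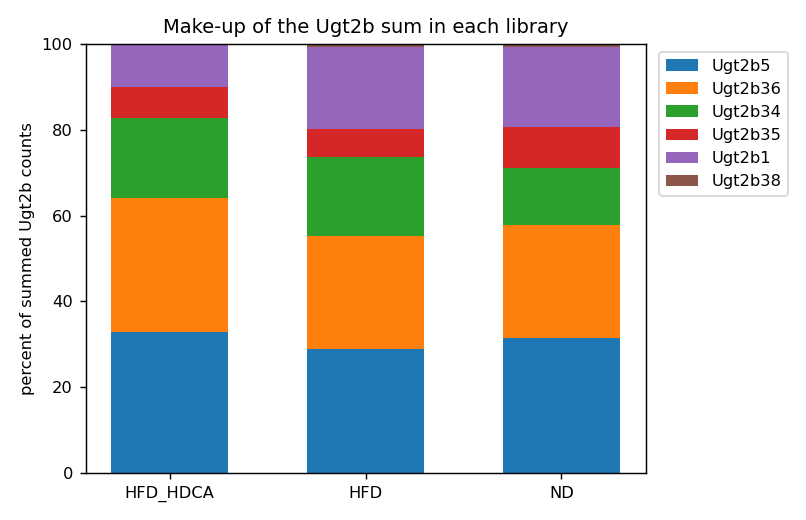
Share of the summed Ugt2b counts that each of the 6 copies took in the HFD_HDCA, HFD and ND libraries, in percent. The Ugt2b1 band was 9.93% of the bar in HFD_HDCA, against 19.2% in HFD and 18.7% in ND.

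Detection in single barcodes likewise placed HFD_HDCA lowest for Ugt2b1, which had a UMI in 30.2% of the retained barcodes in HFD_HDCA, 37.4% in HFD and 42.7% in ND, although the HFD_HDCA barcodes were the deepest, with a median of 1018 nuclear-encoded UMIs against 732 in HFD and 813 in ND. With each barcode thinned to 500 UMIs the shares were 10.7% (9.55 to 11.9%), 22.9% (21.02 to 24.8%) and 22.6% (20.9 to 24.3%) in HFD_HDCA, HFD and ND. Thinning left out 179, 925 and 339 shallower barcodes of these libraries. Ugt2b38 had a UMI in 4 of 3000 barcodes in HFD_HDCA, 67 of 2898 in HFD and 72 of 2776 in ND. Sult1d1 was found, after thinning, in 13.4% of barcodes in HFD_HDCA, 17.5% in HFD and 9.07% in ND. At least 1 UMI of any Ugt2b copy was present in 86.0%, 78.2% and 85.7% of unthinned barcodes.

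UMIs of a gene can reach other cell types from free RNA or from a hepatocyte caught under the same barcode, a doublet, and doublets were not removed. The members were counted, without separating these sources, in barcodes with at least 5 UMIs of endothelial or Kupffer markers. These were 56 in HFD_HDCA, 34 in HFD and 109 in ND, with median depths of 830.5, 794.5 and 912 nuclear-encoded UMIs. Ugt2b5 had a UMI in 7.14% of them in HFD_HDCA, 11.8% in HFD and 22.9% in ND, against 62.7%, 49.9% and 58.1% of all retained barcodes. Ugt2b1 had a UMI in 3.57%, 8.82% and 11.01% of them, and at least 1 UMI of any Ugt2b copy was in 32.1%, 41.2% and 48.6%. Apart from Ugt2b38, whose counts are too few for this comparison, each measured member had a lower share in these barcodes than among all retained barcodes of the same library. Endothelial markers were higher in ND than in the other libraries. Without the marker-bearing barcodes the log2 ratio of Ugt2b1 was -1.11 with HFD_HDCA set against HFD and -1.13 with it set against ND. The share of mitochondrial counts also differed, with a median of 7.42% per retained barcode in HFD_HDCA, 12.9% in HFD and 11.4% in ND. In barcodes with at most 20% mitochondrial counts the ratios of Ugt2b1 were -1.16 against HFD and -1.08 against ND, and those of Ugt2b38 were -4.46 and -4.49.

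Liver lobules run from the portal vein to the central vein, and many conjugating enzymes are known to differ along this axis. Barcodes were ranked within each library by the share of 8 pericentral landmarks among their landmark UMIs, with 9 periportal landmarks making up the rest, and were cut into 3 zones of similar size. The pericentral, middle and periportal zones held 964, 909 and 1040 barcodes in HFD_HDCA, 795, 989 and 935 in HFD, and 755, 862 and 813 in ND, after leaving out 87, 179 and 346 barcodes with fewer than 5 landmark UMIs. The zones are ranges of a score, not cell types, and 24.5%, 22.6% and 55.5% of the scored barcodes of HFD_HDCA, HFD and ND lay within 0.05 of a cut. The cuts were each library's own, and the landmarks themselves differed. Cyp2e1, a pericentral landmark, had 10409 CPM in the pericentral zone of HFD_HDCA, 9844 CPM in that of HFD and 4700 CPM in that of ND. Median Cyp2e1 UMIs per barcode in the pericentral and periportal zones were 9 and 1 in HFD_HDCA, 7 and 0 in HFD, and 2 and 0 in ND. Median Cyp2f2 UMIs in the same zones were 0 and 1 in HFD_HDCA, 0 and 3 in HFD, and 0 and 5 in ND. Periportal barcodes were deeper than pericentral ones, with median depths of 1046 and 2115.5 nuclear-encoded UMIs in the pericentral and periportal zones of HFD_HDCA, 858 and 1492 in HFD, and 806 and 1745 in ND.

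**Figure D4:**
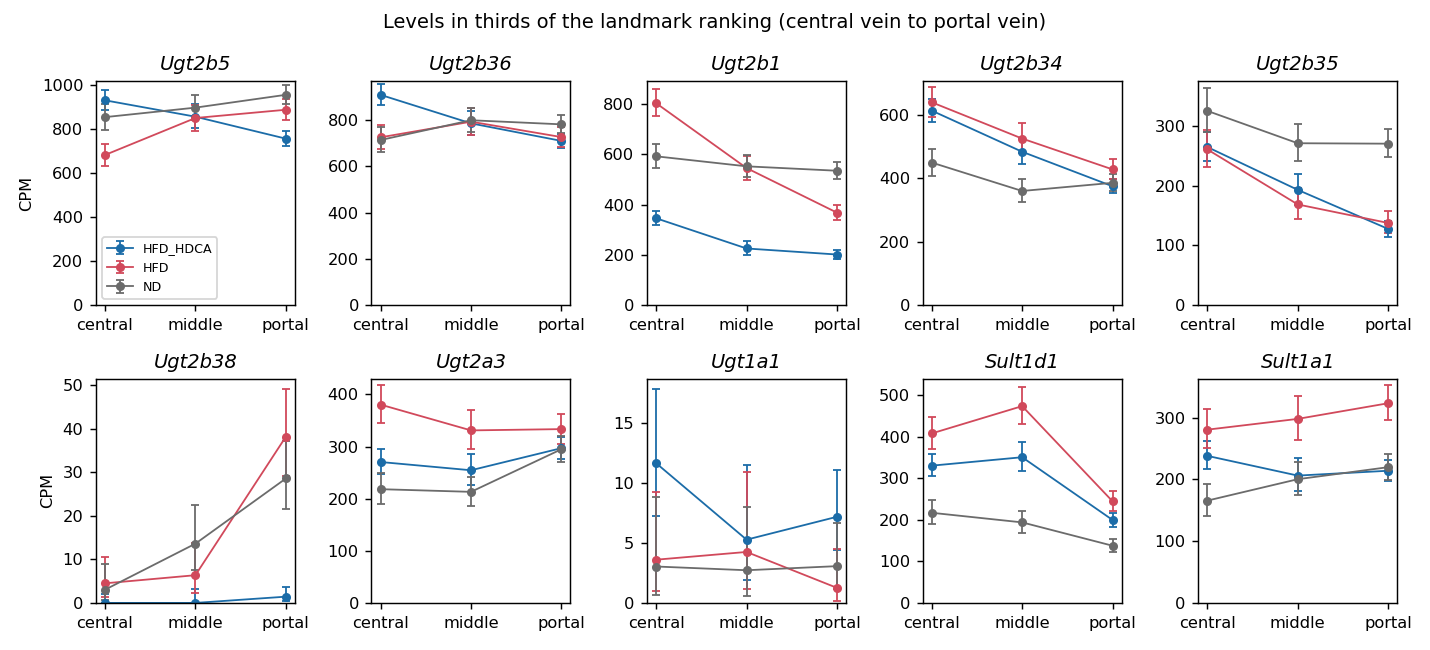
Levels of the 10 genes in the central, middle and portal zones of the HFD_HDCA (blue), HFD (red) and ND (grey) libraries, in CPM, with exact 95% Poisson intervals. Each panel has its own axis from 0. Ugt2b1 in HFD_HDCA lay below the other libraries in every zone, and Sult1d1 was lowest at the portal end in all 3.

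Ugt2b1, Ugt2b34, Ugt2b35 and Sult1d1 were higher in the pericentral than in the periportal zone of every library, where all genes compared had a median log2 ratio of 0.06 in HFD_HDCA, 0.06 in HFD and 0.11 in ND. Ugt2b1 had 346 CPM in the pericentral, 225 CPM in the middle and 201 CPM in the periportal zone of HFD_HDCA. It had 803, 545 and 368 CPM in these zones of HFD and 592, 552 and 534 CPM in those of ND. The log2 ratio of pericentral to periportal was 0.78 (0.61 to 0.95) in HFD_HDCA, 1.13 (0.97 to 1.28) in HFD and 0.15 (-0.00 to 0.29) in ND, where the interval reached 0 and held the all-gene median. Ugt2b35 gave 1.05 (0.85 to 1.25) in HFD_HDCA, 0.92 in HFD and 0.27 in ND. Ugt2b34 gave 0.71 in HFD_HDCA, 0.58 in HFD and 0.22 in ND. Sult1d1 gave nearly the same ratio in each, at 0.73 (0.56 to 0.90) in HFD_HDCA, 0.74 in HFD and 0.66 in ND. The difference between the libraries' gradients was not tested, since each library had its own landmark levels and cuts.

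Ugt2b38 ran the other way. Its counts in the pericentral, middle and periportal zones were 5, 6 and 61 in HFD, and 3, 15 and 56 in ND, equal to 4.50, 6.36 and 38.2 CPM in HFD and 3.03, 13.6 and 28.6 CPM in ND. In HFD_HDCA all 4 counts were periportal, at 1.43 CPM, and the pericentral count of 0 is given a limit of 3 counts, or 1.66 CPM. The log2 ratio of pericentral to periportal was -2.96 in HFD and -3.03 in ND, from fewer than 100 counts each. Its near copy Ugt2b5 sloped the same way but less in these libraries, with log2 ratios of -0.38 (-0.51 to -0.25) in HFD and -0.16 (-0.28 to -0.04) in ND. It had 682, 849 and 887 CPM in the pericentral, middle and periportal zones of HFD and 853, 897 and 955 CPM in those of ND. In HFD_HDCA, Ugt2b5 was higher toward the central vein, at 930, 855 and 756 CPM, a ratio of 0.30 (0.21 to 0.39). Ugt2b36 had 909, 786 and 710 CPM in the pericentral, middle and periportal zones of HFD_HDCA, while its pericentral and periportal levels in HFD were 726 and 727 CPM. Ugt2a3 and Sult1a1 gave ratios between -0.43 and 0.19 in the 3 libraries.

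Of the members with at least 100 counts over the 2 outer zones, 1 was at least 2-fold higher in the pericentral zone in HFD_HDCA (Ugt2b35), where 2.27% of 4723 genes were higher and 1.76% lower. In HFD it was 1 (Ugt2b1), where 3.05% of 3241 genes were higher and 2.68% lower. In ND 0 were higher, where 2.62% of 3507 genes were higher and 1.4% lower. In each library 0 members of this kind were at least 2-fold lower. Landmark genes were left out of these percentages.

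Zones of the same name had different cuts in each library, so ratios between them compare ranks, not matched lobule positions. Pericentral barcodes had a pericentral landmark share above 0.556 in HFD_HDCA, 0.5 in HFD and 0.25 in ND. Periportal barcodes had a share of at most 0.333, 0.2 and 0.0278 in these libraries. Within zones, the low level of Ugt2b1 in HFD_HDCA was present throughout. Its log2 ratio of HFD_HDCA to HFD was -1.22 (-1.37 to -1.07) in the pericentral, -1.27 (-1.495 to -1.055) in the middle and -0.87 (-1.04 to -0.70) in the periportal zone. Against ND it was -0.78, -1.29 and -1.41 in these zones. HFD against ND had opposite signs in the outer zones. It gave 0.44 (0.29 to 0.59) in the pericentral, -0.02 in the middle and -0.54 (-0.69 to -0.39) in the periportal zone. For Ugt2b38, the periportal zone gave -4.58 (-6.65 to -3.30) for HFD_HDCA against HFD. Sult1d1 in HFD against ND gave 0.91 in the pericentral, 1.29 in the middle and 0.83 in the periportal zone, all with intervals above 0. Ugt2b35 in HFD_HDCA against ND gave -0.30 in the pericentral, -0.49 in the middle and -1.08 in the periportal zone. In HFD against ND it gave -0.32, -0.68 and -0.97 in these zones, so both high fat libraries lay furthest below ND in the periportal zone. The Ugt2b sum in HFD_HDCA against ND gave 0.06 in the pericentral, -0.19 in the middle and -0.44 (-0.50 to -0.39) in the periportal zone. Against HFD this sum gave -0.02, -0.18 and -0.25 in these zones.

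The genes whose zone and library pattern was most like a member's were picked by Pearson's r over the 9 values of 3 libraries by 3 zones, among 3405 genes with at least 500 counts. These 9 points share libraries and depth, so r is a description. The closest to Ugt2b1 were Abat at 0.97, Cat at 0.96 and Hsd3b5, a male-predominant steroid reductase of mouse liver, at 0.95. The closest to Sult1d1 were Por, which supplies electrons to cytochromes P450, at 0.97, Hsp90ab1 at 0.97 and Sord at 0.97. The closest to Sult1a1 were Serp1 at 0.98, Il6ra at 0.96 and Klf9 at 0.95. For Ugt2b35 they were Fbxo21 at 0.98, Eif2s2 at 0.96 and Cyp3a11 at 0.93, and for Ugt2b34 they were Tex2, Usp14 and Lactb, each at 0.96. Ugt2a3 was closest to Irf2bpl at 0.93, Klf9 at 0.92 and Ube2e1 at 0.92. Ugt2b5 and Ugt2b36 varied least over the 9 values, with closest genes Ccdc50 at 0.94 and Chmp2b at 0.83.

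The wider conjugation pathway was read from a list of 63 further genes, of which 34 were measured. Among the other glucuronosyltransferases 2 of 14 were measured, and neither passed 2-fold. Ugt3a1 had 317 CPM in HFD_HDCA, 251 CPM in HFD and 168 CPM in ND, and Ugt3a2 had 422, 467 and 371 CPM in these libraries. Among the other sulfotransferases 5 of 20 were measured and 11 had 0 counts in all libraries, where the limit of 3 counts is 0.518 CPM in HFD_HDCA, 0.803 CPM in HFD and 0.702 CPM in ND. Sult2a1 and Sult3a1 were among the 11. The 5 measured ones had 0 higher and 0 lower in HFD against ND, 0 higher and 1 lower in HFD_HDCA against HFD, and 0 higher and 2 lower in HFD_HDCA against ND. The lower shares over all measured genes were 3.53%, 1.48% and 2.97% in these comparisons. Sult2a8, a bile acid sulfotransferase of mouse liver, was the most abundant, at 991 CPM (966 to 1017) in HFD_HDCA, 1686 CPM (1645 to 1728) in HFD and 1000 CPM (970 to 1030) in ND. Like the 2 sulfotransferases among the members it was highest in HFD, with a log2 ratio of 0.75 against ND. Sult5a1 had 22 counts or 3.80 CPM in HFD_HDCA, 60 counts or 16.1 CPM in HFD and 58 counts or 13.6 CPM in ND, a log2 ratio of -2.06 (-2.86 to -1.36) for HFD_HDCA against HFD. Tpst2, which sulfonates tyrosines of proteins, had 12.9 CPM in HFD_HDCA, 19.3 CPM in HFD and 31.6 CPM in ND, a log2 ratio of -1.28 (-1.71 to -0.87) for HFD_HDCA against ND.

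All 10 genes of cofactor supply were measured, and 1 passed 2-fold, in HFD against ND, where 3.53% of all measured genes were lower. This was Slc35d2, a nucleotide sugar transporter, with 40.7 CPM in HFD_HDCA, 35.9 CPM in HFD and 79.3 CPM in ND, a log2 ratio of -1.14 (-1.44 to -0.85) for HFD against ND. Ugp2, which makes UDP-glucose, had 704 CPM in HFD_HDCA, 538 CPM in HFD and 464 CPM in ND. Ugdh, which oxidises it to UDP-glucuronic acid, had 233, 228 and 305 CPM in the same libraries, so that these consecutive steps differed in opposite directions from ND. Slc35d1, which carries UDP-glucuronic acid into the endoplasmic reticulum, had 215 CPM in HFD_HDCA, 250 CPM in HFD and 202 CPM in ND. For sulfonation, Papss2, which makes PAPS, had 143 CPM in HFD_HDCA, 157 CPM in HFD and 138 CPM in ND. Its relative Papss1 had 15.7, 15.3 and 17.8 CPM. Bpnt1, which clears the spent cofactor, had 104 CPM in HFD_HDCA, 113 CPM in HFD and 95.7 CPM in ND. The sulfate transporter Slc26a1 had 89.7 CPM in HFD_HDCA, 89.2 CPM in HFD and 62.0 CPM in ND. The PAPS transporters Slc35b2 and Slc35b3 lay between 12.1 and 23.0 CPM in all 3 libraries.

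Of the 3 measured genes of deconjugation and the 3 of conjugate efflux, 0 passed 2-fold in any comparison. Of 11 regulators, all measured, 2 were higher and 0 lower in HFD against ND, 0 either way in HFD_HDCA against HFD, and 1 higher and 0 lower in HFD_HDCA against ND. Over all measured genes, 2.85% were higher and 3.53% lower in the first of these comparisons, 1.63% and 1.48% in the second, and 2.62% and 2.97% in the third. The aryl hydrocarbon receptor gene Ahr had 54.5 CPM in HFD_HDCA, 56.2 CPM in HFD and 23.4 CPM in ND, with a log2 ratio of 1.26 for HFD against ND, while HFD_HDCA against ND gave 1.22. Its pericentral to periportal log2 ratio was 2.27 in HFD_HDCA, 2.18 in HFD and 2.68 in ND, the last from 53 and 16 counts. The zone cuts on the landmark share were lowest in ND, and the part of this in the whole-library ratios of Ahr was not tested. Ppara, the fatty acid receptor gene, had 74.2 CPM in HFD_HDCA, 98.0 CPM in HFD and 42.3 CPM in ND, a log2 ratio of 1.21 (0.95 to 1.48) for HFD against ND. Whether any of these genes acts on the members was not tested.

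**Figure D5:**
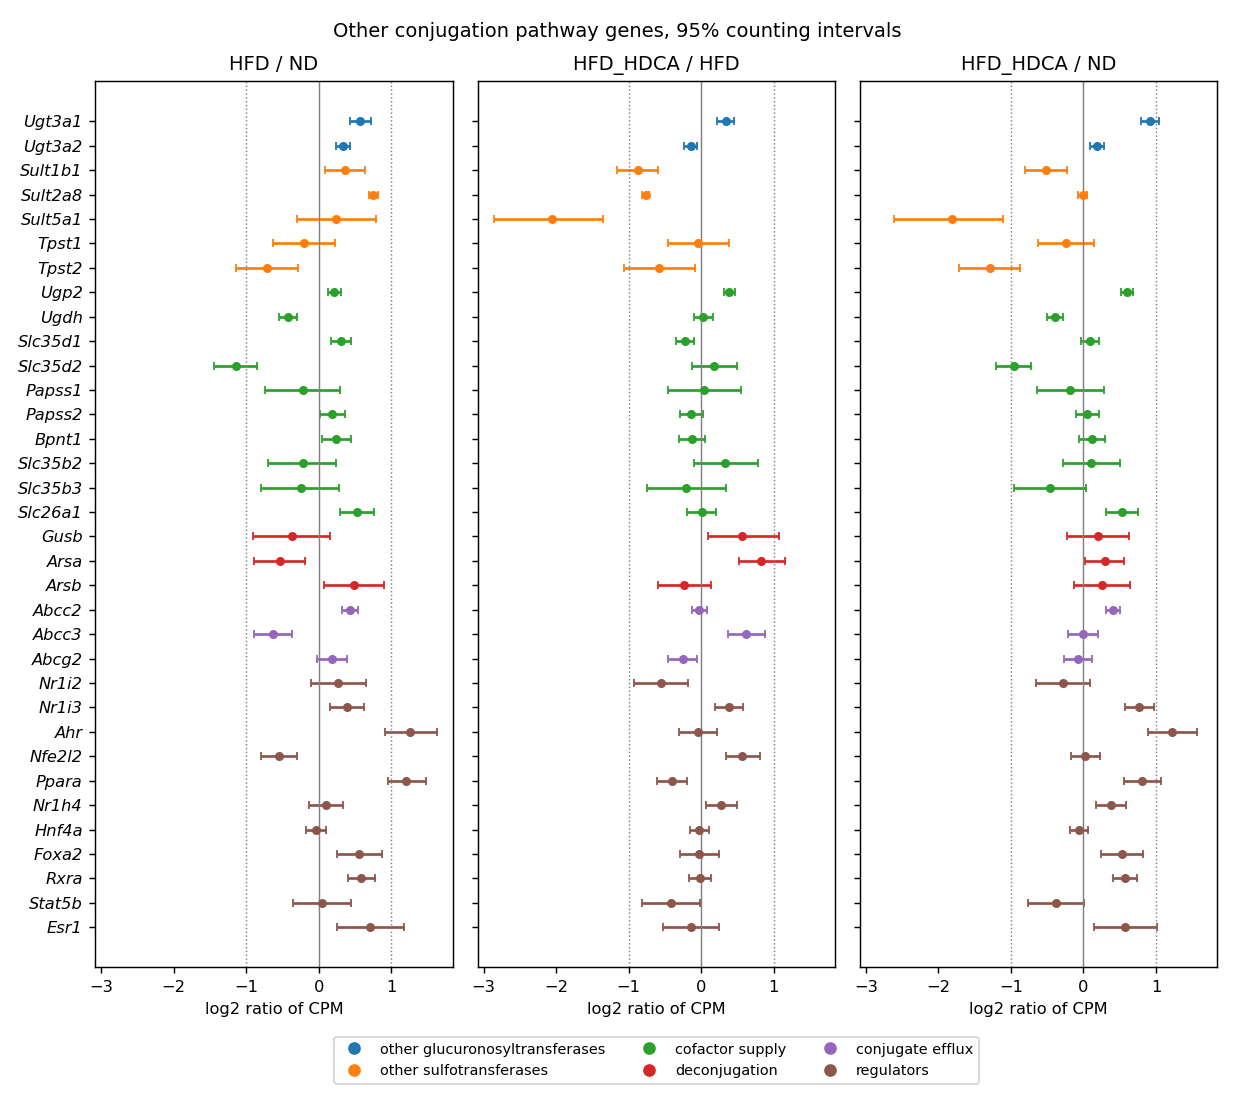
Log2 ratios of the 34 measured pathway genes in the 3 comparisons, coloured by role, with 95% counting intervals and dotted lines at 2-fold. Sult5a1 lay furthest below 0 where HFD_HDCA was set against HFD and ND, and Ahr and Ppara lay past the upper line for HFD against ND.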

How the data were processed

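The deposited matrices hold UMI counts per gene and barcode, written by version 5.0.0 of Cell Ranger (per the file headers), and the submitters' processing notes name genome build mm10. How the authors chose barcodes is not given in the sources used here. Counts of retained barcodes were summed per library and zone and divided by nuclear-encoded totals (CPM). Before log2 ratios were taken, 0.5 was added to counts. Their 95% intervals are exact conditional binomial. CPM intervals are exact Poisson and shares exact binomial. The ratio step was tested on simulated data. For 0 counts the limit given is that of 3 counts. Doublets were not removed. Of 32285 gene identifiers, 32158 were in GENCODE M21.

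The members, gene lists and named-gene rule were chosen with earlier results of these data known. Named genes were the 10 members, every measured pathway gene at least 2-fold apart in any comparison, the cofactor genes, and the nearest genes by correlation. Ugt3a1, Ugt3a2, Ugt2b37, Sult2a1, Sult2a7, Sult2a8 and Sult3a1 were chosen after their values were seen. One listed item is not reported here. Alternatives varied the scaling, cell filters, count minimum, weighting and zone cuts. Software was Python 3.11.15, numpy 2.4.6, pandas 2.3.3, scipy 1.17.1, Biopython 1.88 and matplotlib 3.10.9.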

Additional observations from a re-analysis of the deposited data

Results flagged for a closer look

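A few members sloped from the central to the portal zone in opposite directions in different libraries, with 1 library each, and the differences were not tested. The log2 ratio of pericentral to periportal for Ugt2b5 was 0.30 in HFD_HDCA against -0.38 in HFD, and 0.30 in HFD_HDCA against -0.16 in ND. For Ugt2b36 it was 0.36 in HFD_HDCA against -0.13 in ND. For Ugt2a3 it was 0.19 in HFD against -0.43 in ND. The pericentral zone of ND had 4700 CPM of Cyp2e1, against 10409 CPM in HFD_HDCA and 9844 CPM in HFD, so equally named zones of ND and the other libraries differ in their landmarks. The part of this in the slopes was not tested.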

How the results depend on the processing

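No paired analysis was possible because each group had 1 library, and for the same reason no replicate could be left out. The Ugt1a sum and the shares within the Ugt2b sum were chosen after seeing the data. The log2 ratios of Ugt2b1 and Ugt2b38 for HFD_HDCA against HFD and against ND kept their direction and stayed past 2-fold in all 10 alternatives, at -1.17 to -1.04 and -1.24 to -1.07 for Ugt2b1, and -5.37 to -4.32 and -5.09 to -3.68 for Ugt2b38. After thinning, Ugt2b38 had 0 counts in HFD_HDCA, and its ratios there, -5.37 and -4.97, depend on the 0.5 added. Members at least 2-fold higher in HFD against ND numbered 0 without genes over 1% of counts in the scaling total, in barcodes with at least 500 genes, in barcodes thinned to 500 UMIs, and with pooled-cut zones weighted equally, where Sult1d1 ranged down to a log2 ratio of 0.93. Lower members in HFD_HDCA against HFD and against ND numbered 1 after thinning and 1 with a minimum of 500 counts, since Ugt2b38 then misses the minimum. Higher members in both comparisons numbered 1 with a minimum of 20 counts, which admits Ugt1a1. Members higher in the pericentral zone of HFD numbered 2 with the outer 20% of ranks as zones and 2 with at least 500 genes. Among all measured genes, 224 were at least 2-fold higher in HFD against ND with the main scaling. Without genes over 1% of counts in the scaling total they numbered 216. The numbers for all genes under the other settings are not given here, so these member counts have no background beside them. The Ugt2b sum stayed within 2-fold throughout. For HFD_HDCA against HFD it was -0.12 with mitochondrial counts in the total, -0.21 with median-of-ratios scaling, -0.088 with barcodes weighted equally and -0.11 after thinning. For HFD_HDCA against ND it was -0.16 with mitochondrial counts in the total and -0.25 with pooled-cut zones. For HFD against ND it was 0.023 with median-of-ratios scaling, -0.12 with equal weights and 0.0053 with at least 500 genes. Zones from Cyp2e1 and Cyp2f2 alone gave no value in HFD_HDCA and HFD, where 0 barcodes were pericentral. Ugt1a1 had 47, 10 and 14 counts in HFD_HDCA, HFD and ND, which limits its ratios.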

Other observations

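The barcodes left out for more than 50% mitochondrial counts, 1863 in HFD_HDCA, 3354 in HFD and 2977 in ND, also held counts of the members. In these barcodes, Ugt2b1 had 128 counts or 301 CPM in HFD_HDCA, 326 counts or 692 CPM in HFD and 360 counts or 635 CPM in ND. Ugt2b38 had 0 counts in HFD_HDCA, 6 in HFD and 19 in ND. Ugt2b5 had 1406 CPM in HFD_HDCA, 1151 CPM in HFD and 1569 CPM in ND, above its level among the retained barcodes of each library. Sult1d1 had 273 CPM in HFD_HDCA, 444 CPM in HFD and 197 CPM in ND.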
